A study of Rattus norvegicus with 8 samples.

Results

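Growth arrest genes and targets of the tumour suppressor p53 were followed in the rat soleus, a slow hindlimb muscle used in standing, through a short loss and return of weight bearing. They were chosen by name: Cdkn1a, Mdm2, Gadd45a, Ccng1, Btg2, Bax and the D-type cyclins Ccnd1, Ccnd2 and Ccnd3, 9 genes in all, with each probe set counted that carries only one of these symbols in the platform annotation. That gave 22 of the 8740 probe sets measured, for 7 of the 9 genes. The 3 probe sets of Bax carry 2 symbols each, so Bax was not analysed here, nor was Btg2. Control rats had 12 h of normal cage activity (3 arrays). Unloaded rats were kept off their hindlimbs for 12 h (3 arrays), and walked rats went from 12 h without hindlimb load onto a treadmill, where they walked for 2 h in all, as bouts of 30 min with 30 min in the cage between them over 4 h (2 arrays). All rats were female, and neither strain nor age is given in the sources used here. Each array received RNA pooled from 8 to 10 rats, and the p-values therefore describe how pools vary, not how single rats vary. Walking and the 4 h that it took after unloading cannot be told apart.

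p53 is a transcription factor that accumulates when DNA is damaged or cells are stressed, and its targets stop the cell cycle, repair DNA or start cell death. Cdkn1a encodes p21, which blocks cyclin-dependent kinases, and Mdm2 encodes the ubiquitin ligase that marks p53 itself for degradation, so it closes a feedback loop. The D-type cyclins act the other way and drive cells out of G1. Mature muscle fibres do not divide, and in muscle Gadd45a and Cdkn1a are known as genes that rise with denervation, disuse and stress.

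The array medians lay between a signal of 37.1 and 42.4, and log2 signals of 2 arrays correlated at 0.949 to 0.963 inside a group and at 0.913 to 0.945 across groups. Slow myosin Myh7, which defines this muscle, had signals of 5146 to 8004 over the 8 arrays. In a comparison, a log2 fold change stands with its standard error (SE), and a probe set is said to have risen or fallen where limma's p, adjusted over the 5244 probe sets tested, was under 0.05. The median log2 fold change of all 5244 was -0.08 for unloaded minus control, -0.05 for walked minus unloaded and -0.11 for walked minus control. The summed signal of 9 skeletal muscle genes was 22759 to 25357 in control, 26291 to 36510.0 in unloaded and 33377 to 38472 in walked arrays. Among markers of other cells, the summed signal of 8 fibroblast genes was 6393 to 9174 in control, 7507 to 11668 in unloaded and 7003 to 7035 in walked arrays, and that of 8 leukocyte genes 1532 to 1588, 1484 to 1743 and 1221 to 1307. With unloading the fibroblast genes Dcn and Lum, the leukocyte gene Cd48 and the adipocyte gene Fabp4 (1.52 ± 0.20) rose, and the smooth muscle gene Tagln (-0.96 ± 0.22) and the slow tropomyosin Tpm3 (-0.95 ± 0.17) fell. The fibroblast, leukocyte and adipocyte genes went both ways, with 4 of 8, 3 of 8 and 2 of 4 above 0. Of the 9 skeletal muscle genes 8 were above 0, unlike Tpm3, and of the 6 smooth muscle genes 1 was. Lum lost its call without control pool 1, control pool 3 or unloaded pool 1 (adjusted p up to 0.101), and Tagln without control pool 3 or unloaded pool 2 (up to 0.0820). Walked against unloaded, RT1-Da (leukocytes) and Prx (Schwann cells) fell. In that comparison 3 of the 4 nerve and Schwann cell genes were above 0, with a median of 0.15, and 2 of the 8 leukocyte genes were. Walked against control, Col1a2 and Thy1 (fibroblasts) and Cd74 and RT1-Da (leukocytes) fell, while Dcn and the muscle genes Acta1, Ckm, Tnni1, Myl2 and Myl3 rose. Apart from Dcn, each of these walked calls was lost without either walked pool or, for Acta1 and Prx, without one of them and at least 1 other pool (adjusted p up to 0.277). The 6 satellite cell and myoblast genes summed to 4335 to 4552 in control, 4244 to 5103 in unloaded and 6379 to 8486 in walked arrays. These sums are mostly Des and Sdc4, the brightest of them, and Des is also in the smooth muscle list. Des had 2365 ± 69.1 in control, 3020.1 ± 510.3 in unloaded and 3555 ± 992 in walked pools, without a call. Sdc4 was the one that rose after walking, from 919 ± 167 in unloaded to 3333 ± 543 in walked pools. Only 3 of the 6 were above 0 in walked against unloaded, with a median of -0.06. The defining satellite cell genes Pax7 and Myf5 are not analysed here. The part of these markers in the results was not tested, and in whole muscle fewer cells of a type and less RNA per cell cannot be told apart.

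Of the 22 probe sets, 18 passed the filter on low signal and were tested. In unloaded against control, 3 rose and 1 fell, which is 22.2% of 18 beside 7.30% of all probe sets tested (3.99% higher and 3.32% lower). In walked against unloaded 1 rose and 0 fell, or 5.56% beside 4.20% (2.73% higher and 1.47% lower). In walked against control 2 rose and 0 fell, or 11.1% beside 9.08% (4.46% higher and 4.61% lower), so with walking the share was near the background. In unloaded against control the arrays of the groups did not overlap for 6 of 18, with 3 higher and 3 lower, beside 26.4% of all tested (10.2% and 16.1%). This held for 11 of 18 in walked against unloaded, with 8 higher and 3 lower, beside 35.3% (13.5% and 21.8%). In walked against control it held for 9 of 18, with 7 higher and 2 lower, beside 43.0% (15.5% and 27.6%). The higher ones in both walked comparisons include L41275cds_s_at of Cdkn1a, which passed the filter through its walked arrays. The counts rest on few genes, since the 3 rises with unloading are all Gadd45a. The genes were chosen with earlier results of these data known, so the shares describe them and do not test an excess over the background. The median log2 fold change of the 18 was -0.13, 0.20 and 0.21 in the order above. Each pair of comparisons has a group in common, so their values are only given side by side.

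**Figure D1:**
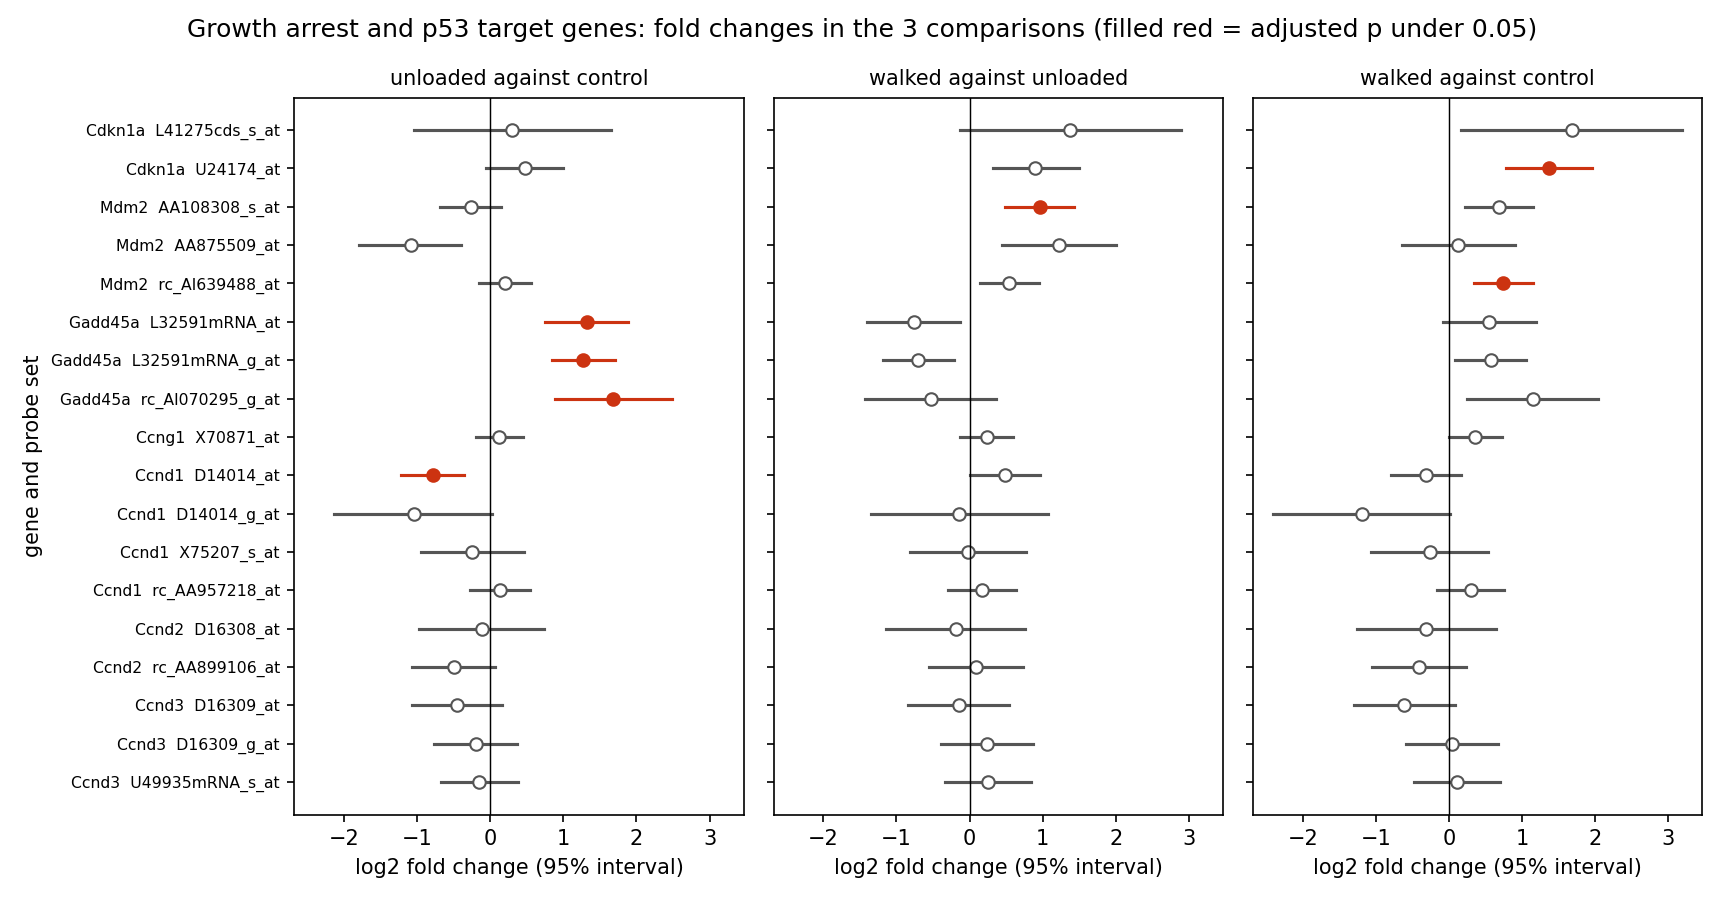
Log2 fold change (points) and 95% interval (lines) of the 18 tested probe sets in each comparison, 1 row per gene and probe set. Filled red points had an adjusted p under 0.05: the 3 Gadd45a probe sets and 1 of Ccnd1 in unloaded against control, 1 of Mdm2 in walked against unloaded, and 1 each of Cdkn1a and Mdm2 in walked against control.

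Gadd45a, a stress sensor that binds p21 and proliferating cell nuclear antigen and takes part in growth arrest and DNA repair, rose with unloading on all 3 of its tested probe sets. Its brightest, L32591mRNA_g_at, had signals of 129, 147 and 135 in the control pools, 323, 259.9 and 428 in the unloaded pools and 175 and 237 in the walked pools. Every unloaded array lay above every control array, and the walked arrays lay between the groups without overlapping either. The means were 137 ± 8.97 (SD, n = 3), 337 ± 85.0 (n = 3) and 206 ± 44.3 (n = 2). The rise with unloading was 1.27 ± 0.20, or 2.42-fold (adjusted p = 0.00282). It was called in each of the 17 alternative settings, with values of 1.08 to 1.44.

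The upstream sequence of Gadd45a is shown because this gene had the most regular change of the group. It is the 250 bases before the transcript start in RefSeq, rat build GRCr8, minus strand, chr4:97486800-97487049, with the motifs found in capitals.
Gadd45a: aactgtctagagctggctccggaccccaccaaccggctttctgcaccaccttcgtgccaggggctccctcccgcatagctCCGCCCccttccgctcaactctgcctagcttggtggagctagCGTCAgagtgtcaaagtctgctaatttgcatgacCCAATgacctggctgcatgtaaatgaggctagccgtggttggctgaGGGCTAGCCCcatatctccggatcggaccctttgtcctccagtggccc
Searched on both strands were the CCAAT box (CCAAT), the GC box (GGGCGG), the TATA box (TATAAA), the core of the cAMP response element (TGACG), the AP-1 site (TGANTCA) and the p53 half-site. The half-site pattern was RRRCWWGYYY, where R is A or G, W is A or T and Y is C or T. Only exact matches were counted here and for Cdkn1a below, so copies with a mismatch are left out. The window held 1 CCAAT box, 1 GC box, 1 cAMP response core and 1 match to the p53 half-site, none overlapping another, and no match to the TATA box or the AP-1 site. Over all 33469 RefSeq promoters, 34.0% of windows of this length hold a CCAAT box, 30.5% a GC box, 18.2% a cAMP response core, 12.9% a TATA box, 6.3% an AP-1 site and 6.6% a p53 half-site. A match is a description of the letters and not a bound site.

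The second probe set of Gadd45a from the same mRNA, L32591mRNA_at, had 60.7, 66.5 and 101 in control, 173, 155 and 233 in unloaded and 84.0 and 140.3 in walked pools. Its rise with unloading was 1.32 ± 0.26 (adjusted p = 0.0103), and its unloaded and control arrays did not overlap. A probe set from another sequence, rc_AI070295_g_at, had 40.6, 15.1 and 40.1 in control, 90.1, 105 and 84.8 in unloaded and 52.4 and 78.8 in walked pools. Here the rise was 1.68 ± 0.36 (adjusted p = 0.0172), and again no unloaded array overlapped a control array. Its partner rc_AI070295_at was too dim to be tested, at 4.89 to 18.6 in control, 16.1 to 63.8 in unloaded and 16.5 to 28.4 in walked pools. Without the filter, only L32591mRNA_g_at kept its call (adjusted p = 0.0847 for L32591mRNA_at and 0.118 for rc_AI070295_g_at). The call of rc_AI070295_g_at also ended without a mean-variance trend (adjusted p = 0.0502), without unloaded pool 1 (0.0571) and without unloaded pool 2 (0.0744).

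After walking, Gadd45a was lower than after unloading alone on all 3 tested probe sets, with log2 fold changes of -0.70 ± 0.22, -0.76 ± 0.29 and -0.53 ± 0.41, in the order L32591mRNA_g_at, L32591mRNA_at and rc_AI070295_g_at. None passed the test (adjusted p = 0.121, 0.192 and 0.557), although on each probe set both walked arrays lay below every unloaded array. Against control, the walked values were 0.58 ± 0.22, 0.55 ± 0.29 and 1.15 ± 0.41, again not called (adjusted p = 0.130, 0.268 and 0.101). The walked arrays of L32591mRNA_at overlapped the control arrays, and those of the other 2 lay above them.

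**Figure D2:**
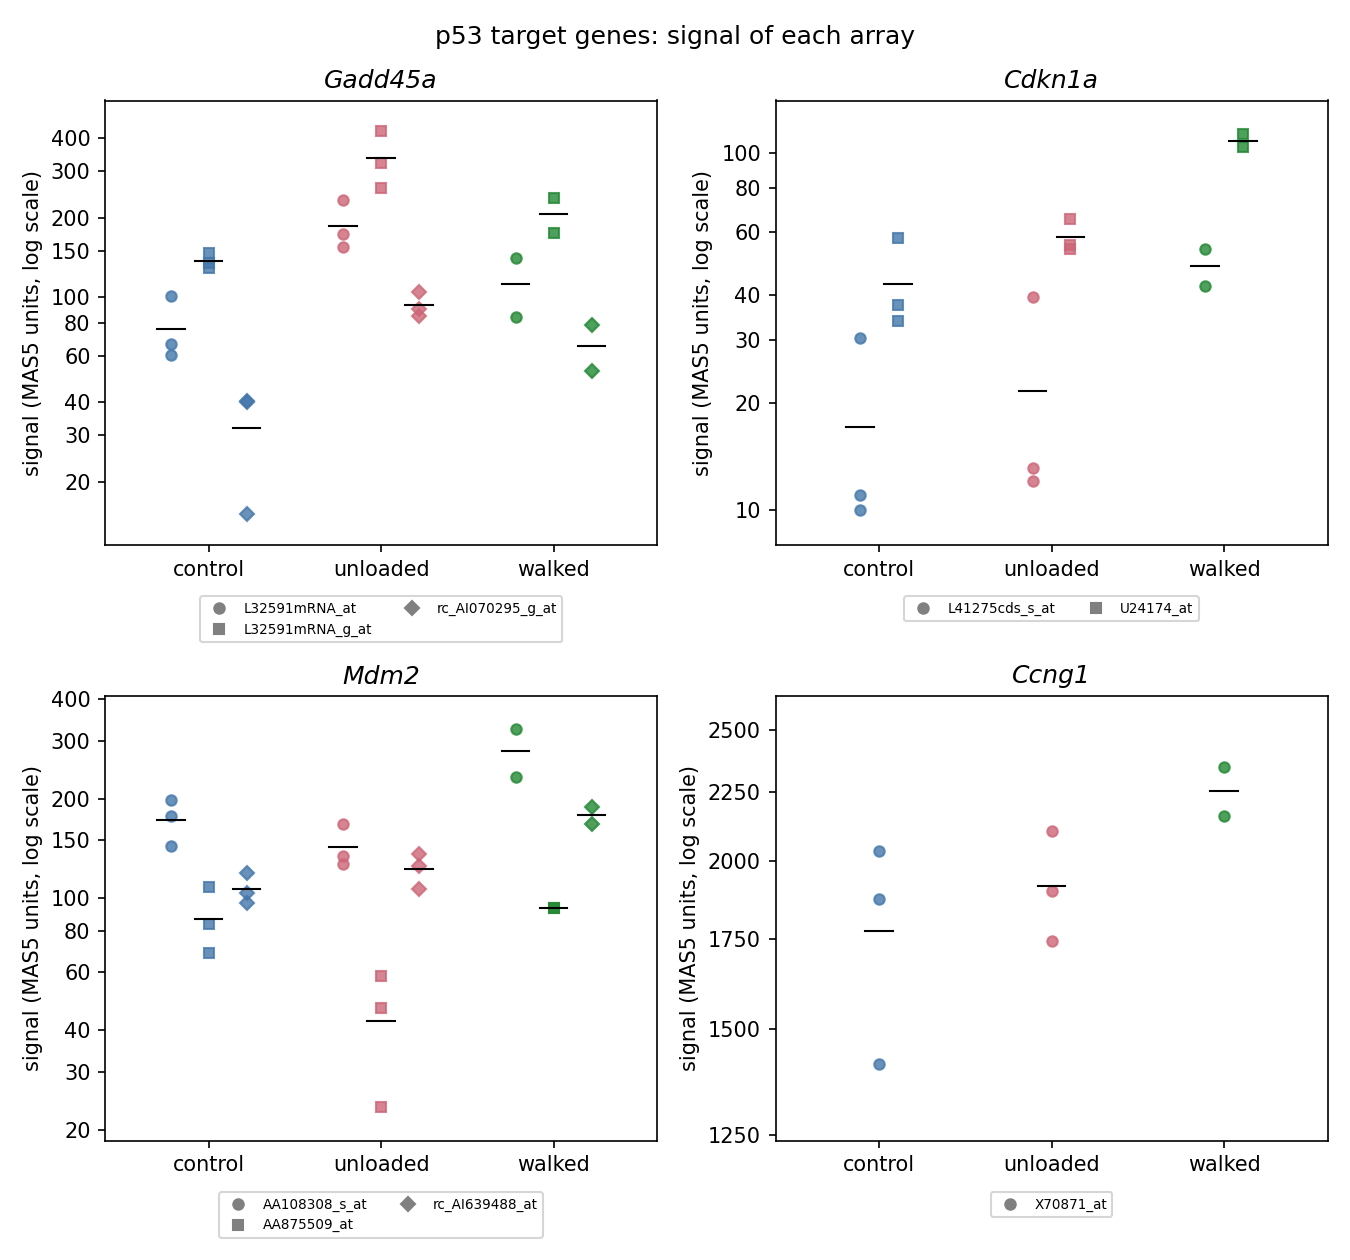
Signal of each array on a log axis for the tested probe sets of Gadd45a, Cdkn1a, Mdm2 and Ccng1, by group, with marker shape for the probe set and a bar at the group mean (3 control, 3 unloaded and 2 walked arrays). Gadd45a is highest in the unloaded arrays, Cdkn1a probe set U24174_at is at 104 and 113 in the walked arrays against at most 65.4 elsewhere, and the 3 Mdm2 probe sets are each higher in the walked than in the unloaded arrays.

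Cdkn1a, which encodes the kinase inhibitor p21 and is the best known p53 target, was highest after walking. On U24174_at the signals were 57.7, 33.9 and 37.5 in control, 55.1, 53.8 and 65.4 in unloaded and 113 and 104 in walked pools. Both walked arrays exceeded every other array, while the control and unloaded arrays overlapped. The means were 43.0 ± 12.8 (n = 3), 58.1 ± 6.35 (n = 3) and 108 ± 6.58 (n = 2). Walked against control, Cdkn1a rose by 1.37 ± 0.27, or 2.59-fold (adjusted p = 0.0120). Against the unloaded arrays it was 0.90 ± 0.27 (adjusted p = 0.0965), which passed in a fit on those groups alone (adjusted p = 0.0476), and unloaded against control it was 0.47 ± 0.24 (adjusted p = 0.297). The rise against control lost its call without either walked pool (1.31 and adjusted p = 0.0874 without pool 1, 1.43 and 0.0786 without pool 2) and without the filter (adjusted p = 0.0505).

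The other Cdkn1a probe set, L41275cds_s_at, was dim, with 11.0, 30.3 and 10.0 in control, 12.1, 13.1 and 39.4 in unloaded and 42.5 and 54.0 in walked pools. It had a mean of 26.5 over all arrays, just above the filter at 25.8, and the walked arrays brought it there. For that reason its higher walked arrays do not add to U24174_at. The log2 fold changes were 1.68 ± 0.69 in walked against control (adjusted p = 0.154), 1.38 ± 0.69 in walked against unloaded (0.337) and 0.30 ± 0.61 in unloaded against control (0.828), and the last turned to -0.25 without unloaded pool 3.

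The sequence upstream of Cdkn1a is given because this gene is the textbook target of p53. It comes from RefSeq, build GRCr8, plus strand, chr20:7150682-7150819, and covers 138 bases, from 250 to 113 before the start of the listed transcript. It ends at that point because the gene's outermost start lies there. Capitals mark motifs.
Cdkn1a: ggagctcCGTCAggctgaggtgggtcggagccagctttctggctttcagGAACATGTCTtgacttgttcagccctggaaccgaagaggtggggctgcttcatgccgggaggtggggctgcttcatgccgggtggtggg
Of the 6 motifs searched, this window held 1 match to the p53 half-site and 1 to the cAMP response core, without overlap, beside 3.9% and 8.3% of all windows at the same place. It held no match to the CCAAT box, the GC box, the TATA box or the AP-1 site, which 19.7%, 14.8%, 7.2% and 3.6% of the windows hold. No match says only that these letters are not in this window.

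Mdm2, the ligase that limits p53, was higher after walking than after unloading on all 3 tested probe sets. The brightest, AA108308_s_at, had 198, 144 and 177 in control, 127, 168 and 134 in unloaded and 326 and 233 in walked pools. The walked arrays lay above all others, and the control and unloaded arrays overlapped. It rose by 0.96 ± 0.21 in walked against unloaded, or 1.94-fold (adjusted p = 0.0291). Against control it had 0.69 ± 0.21 (adjusted p = 0.0687). On rc_AI639488_at the signals were 104, 96.9 and 119 in control, 125, 107 and 136 in unloaded and 168 and 189 in walked pools, and the walked arrays were again the highest. This one rose against control, by 0.74 ± 0.18 or 1.68-fold (adjusted p = 0.0324), and had 0.54 ± 0.18 against the unloaded arrays (adjusted p = 0.143).

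Mdm2 probe set AA875509_at had another order of the groups. It had 108, 68.5 and 84.0 in control, 46.7, 23.5 and 58.2 in unloaded and 93.4 and 93.7 in walked pools. Its unloaded arrays lay below all others, and the walked arrays fell within the control range. The log2 fold changes were -1.09 ± 0.32 in unloaded against control (adjusted p = 0.0624), 1.23 ± 0.35 for walked minus unloaded (0.0868) and 0.13 ± 0.35 for walked minus control (0.862). On the other 2 probe sets unloading gave -0.27 ± 0.19 and 0.20 ± 0.16, so the 3 did not share a direction there. The fourth, AA108308_i_at, had signals of 0.799 to 1.40 and was not tested.

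The Mdm2 calls depend on single arrays and on settings. Beside a fit with the pool number as a term, the rise of AA108308_s_at was lost without unloaded pool 1 (0.88, adjusted p = 0.0950), unloaded pool 3 (0.92, 0.0840) or walked pool 1 (0.72, 0.249), without the filter (0.107) and without the trend (0.0777). That of rc_AI639488_at was lost without control pool 1 (0.73, 0.0630), control pool 2 (0.68, 0.0881), walked pool 1 (0.83, 0.101) or walked pool 2 (0.66, 0.202), without the filter (0.0548) and without the trend (0.0609). Among the fits with 1 array left out, that without unloaded pool 3 gave AA875509_at a call in both comparisons with the unloaded group, at -1.36 (0.0281) and 1.50 (0.0486).

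Ccng1 encodes cyclin G1, a p53 target that recruits a phosphatase to Mdm2. Its only probe set, X70871_at, was bright, with 2035, 1872 and 1411 in control, 1899.5, 1743 and 2105 in unloaded and 2349.7 and 2158 in walked pools. The walked arrays were the highest and the other groups overlapped. No comparison passed the test, with 0.12 ± 0.15 in unloaded against control (adjusted p = 0.693), 0.24 ± 0.17 for walked minus unloaded (0.517) and 0.36 ± 0.17 for walked minus control (0.207). The 95% interval of the last ran from -0.00 to 0.73.

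Ccnd1, the D-type cyclin that is induced by growth factors, fell with unloading on 1 of its 4 tested probe sets. On D14014_at the signals were 136, 112 and 132 in control, 60.5, 92.2 and 70.0 in unloaded and 94.5 and 109.7 in walked pools. The unloaded arrays lay below every array of the other groups, and the walked arrays below the control arrays. The fall was -0.79 ± 0.20, or 1.73-fold lower (adjusted p = 0.0326), with means of 127 ± 12.9 (n = 3) and 74.2 ± 16.3 (n = 3). After walking it had 0.48 ± 0.22 against unloaded (adjusted p = 0.290) and -0.31 ± 0.22 against control (0.426). The fall was called in 8 of 17 alternatives. Beside a fit with the pool number as a term, it was lost without control pool 1 (-0.73, 0.0985), control pool 3 (-0.76, 0.0852), unloaded pool 1 (-0.65, 0.116), unloaded pool 3 (-0.76, 0.0763) or walked pool 2 (-0.79, 0.0503), and without the filter (0.0928), the trend (0.0651) or the walked arrays (0.0510).

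The other Ccnd1 probe sets did not pass the test in any comparison. D14014_g_at, from the same mRNA, had 44.3, 41.5 and 75.1 in control, 21.1, 22.9 and 32.0 in unloaded and 11.3 and 45.3 in walked pools. Its unloaded arrays lay below the control arrays (-1.05 ± 0.49, adjusted p = 0.248), and its walked arrays were far apart from each other. X75207_s_at had -0.25 ± 0.32 with unloading (adjusted p = 0.723) and rc_AA957218_at 0.13 ± 0.19 (0.749), with overlapping arrays. The fifth, rc_AI231257_at, lay between 3.20 and 19.9 and was not tested.

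Ccnd2 and Ccnd3, the other D-type cyclins, had no call. Ccnd2, with 2 probe sets, had -0.12 ± 0.39 and -0.50 ± 0.26 with unloading (adjusted p = 0.901 and 0.300), in the order D16308_at and rc_AA899106_at. On D16308_at the walked pools stood at 79.6 and 29.3, the highest and the lowest of all 8 arrays. In walked against control the values were -0.31 ± 0.43 and -0.41 ± 0.29. Ccnd3, the D-type cyclin that is kept up in differentiating muscle cells, had -0.46 ± 0.28, -0.20 ± 0.26 and -0.15 ± 0.24 with unloading on D16309_at, D16309_g_at and U49935mRNA_s_at (adjusted p = 0.392, 0.718 and 0.782). In walked against unloaded these were -0.15, 0.24 and 0.25. The arrays of U49935mRNA_s_at ranged from 38.8 to 52.0 in control, 38.2 to 41.0 in unloaded and 46.4 to 47.9 in walked pools. Its partner U49935mRNA_r_at, at 4.00 to 8.81, was not tested. The 95% intervals of the Ccnd2 and Ccnd3 probe sets with unloading lay between -1.07 and 0.74, so changes within these bounds were not resolved.

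**Figure D3:**
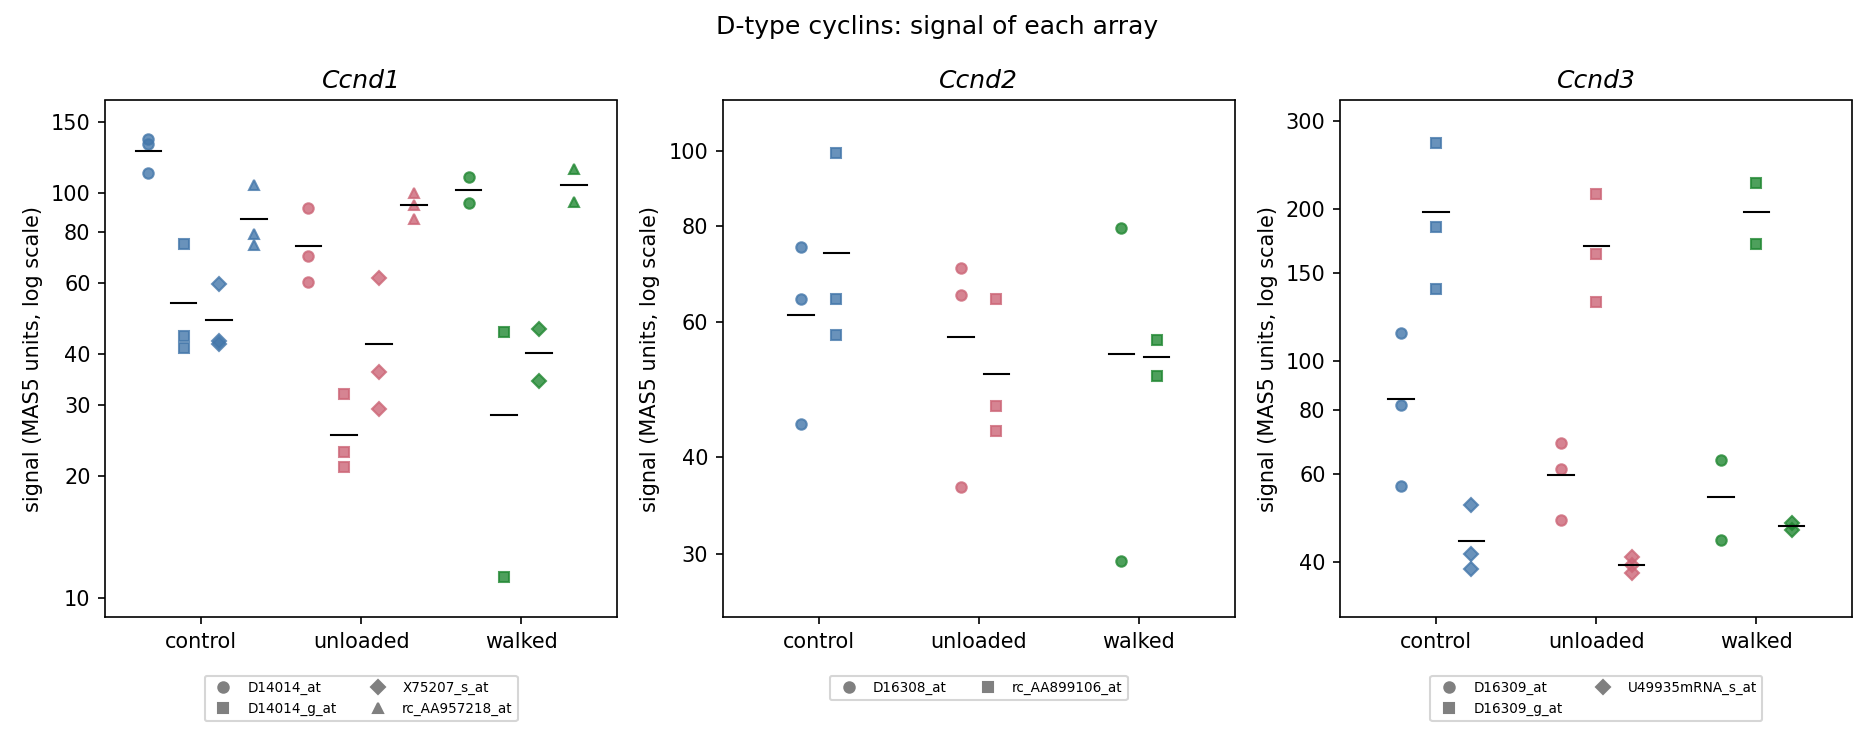
Signal of each array on a log axis for the tested probe sets of Ccnd1, Ccnd2 and Ccnd3, by group, with marker shape for the probe set and a bar at the group mean. The D14014_at arrays of Ccnd1 are at 60.5 to 92.2 after unloading against 112 to 136 in control, while the groups overlap on rc_AA957218_at and on the probe sets of Ccnd2 and Ccnd3 between unloaded and control.

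Other genes of the pathway were taken as 1 probe set per gene, the brightest tested, from lists written by name. Over all 3154 genes so measured, 117 rose and 79 fell in unloaded against control, 74 rose and 55 fell in walked against unloaded, and 118 rose and 146 fell in walked against control. Of 32 symbols listed for this pathway's other targets only 4 genes were measured. Pcna, the sliding clamp of DNA replication and repair, had signals of 334, 199 and 186 in control, 231, 244 and 255 in unloaded and 484 and 547 in walked pools, with the walked arrays above all others. It rose in walked against unloaded (1.08 ± 0.23, adjusted p = 0.0220) and against control (1.15 ± 0.23, adjusted p = 0.0132). Its other probe set had 0.62 and 0.50 and was not called. The first rise was lost without any 1 unloaded or walked pool (adjusted p up to 0.175) and the second without either walked pool (up to 0.111). Rps27l rose with unloading (0.73 ± 0.12, adjusted p = 0.00303) and fell with walking (-0.55 ± 0.13, adjusted p = 0.0391). Its product is a near copy of ribosomal protein S27, and the probe set may read both or belong to Rps27 alone, in which case it is no member of this list. That fall was lost without any 1 array other than control pool 3 (adjusted p up to 0.201). The other measured targets, Zmat3 and the phosphatase gene Dusp5, had no call. The median of the 4 was 0.04, 0.21 and 0.51 in the 3 comparisons, and that of the 3 without Rps27l, a choice made after its value was seen, was 0.00, 0.83 and 0.83.

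Of 22 symbols listed as other growth arrest and stress genes, 12 were measured. With unloading 1 rose and 3 fell, with walking 4 rose and 2 fell against unloaded, and 3 rose and 1 fell against control, with medians of -0.57, 0.50 and 0.13. The stress transcription factor Atf3 fell with unloading (-1.46 ± 0.21) and rose with walking (4.12 ± 0.23), from 225 ± 53.6 in control to 81.2 ± 14.6 and then 1416 ± 288. Egr1, an immediate early transcription factor, went the same way (-1.14 ± 0.17 and 1.95 ± 0.19), with a call on 2 of its 4 probe sets in each comparison. Klf10, induced by transforming growth factor beta, did the opposite, with 1.24 ± 0.19 and then -1.97 ± 0.22. Its other probe set had 0.69 and -1.10 and was not called. Gas6, a growth-arrest-specific ligand, fell with unloading (-0.61 ± 0.15, adjusted p = 0.0350), a call lost without any 1 control or unloaded pool (adjusted p up to 0.120). The other Gas6 probe set had -0.47 without a call. Txnip, which binds thioredoxin and restrains growth, fell with walking to 928 ± 152 from 2951 ± 165 (-1.68 ± 0.15). Klf4 (2.55 ± 0.30) and Ddit3 (1.26 ± 0.25, adjusted p = 0.0131; up to 0.140 without either walked pool) rose in the same comparison. A dimmer Klf4 probe set was called lower with unloading (-1.12), while the brighter one had -0.53 ± 0.27. Against control, Atf3 (2.67), Klf4 (2.02) and Egr1 (0.81) were higher and Txnip was lower (-1.25). Egr1 lost that call without control pool 1 or 3 or either walked pool (adjusted p up to 0.191), and Klf4 without walked pool 2 (0.0503).

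For the genes that execute division or death, the background is that 6.21%, 4.09% and 8.37% of the 3154 genes were called in the 3 comparisons, and 11.3%, 10.9% and 15.1% were lower at an unadjusted p under 0.05. At these shares, counts of 0 or 1 in lists this short do not set them apart from other genes. Of 8 measured other cyclins, kinases and inhibitors, among them Cdk4, Ccne1, Cdkn1c and Rbl2, limma called 0 in any comparison. At an unadjusted p under 0.05, 1 was lower after unloading than in control, 1 was lower after walking than after unloading, and 0 differed between walked and control. Rbl2, a relative of the retinoblastoma protein, had 114 ± 3.77 in control, 166 ± 27.7 in unloaded and 98.6 ± 46.9 in walked pools (-0.82 ± 0.27 with walking, adjusted p = 0.131). Of 6 proliferation markers Pcna alone was called, and Top2a, Plk1, Cdc20, Mcm6 and Mcm7 had values of -0.60 to 0.34 in walked against unloaded. Of 15 measured genes of the Bcl2 family and caspases, 0 were called by limma in any comparison, with 1, 2 and 0 of them lower at an unadjusted p under 0.05. Their medians were -0.08, 0.07 and -0.08. A dimmer probe set of Casp2, named after its value was seen, was called with unloading at 1.95, while the brighter one had -0.63 ± 0.30. In the same way a dimmer probe set of Hrk, a cell death activator, was called in walked against control at 1.76, while the brighter one had -1.09 ± 0.52.

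The genes with the most similar course were found by the root mean square difference of log2 signals over the 8 arrays, each gene set to its control mean, among 3147 genes. Nearest to Gadd45a (L32591mRNA_g_at) were the proteasome subunit Psma2 (0.24), Pcmtd1 (0.24) and the calcium channel subunit Cacna2d1 (0.26), against a median of 0.98 over all genes. These 3 rose with unloading, by 1.33, 0.99 and 1.22, which follows from their choice by likeness to Gadd45a. Nearest to Cdkn1a (U24174_at) were Pcna (0.29), S100a10 (0.32) and the vesicle GTPase Rab10 (0.33), against a median of 0.90. Nearest to Mdm2 (AA108308_s_at) were the fast myosin Myh1 (0.22), Ugdh (0.22) and Ube2j2 (0.23), against 0.58. Nearest to Ccnd1 (D14014_at) were Basp1 (0.16), Nfkb1 (0.17) and the lipid phosphate phosphatase Plpp1 (0.17), against 0.57. Genes of small change lie near each other by this measure, and the medians for Mdm2 and Ccnd1 were lower than those for Gadd45a and Cdkn1a. How far the nearest genes stand apart from the others was not tested.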

How the data were processed

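The authors deposited linear intensity values, 1 for each probe set on each array; the submitters' processing notes name MAS5, without a version or scaling target. Labelled cRNA came from 10 microg total RNA, per the labels. Every array was rescaled to the mean of the 2% trimmed means (148.6; the deposited ones spanned 148.3 to 148.8), values under the 10th percentile (4.1) were set to it, and log2 was taken. Probe sets under the 40th percentile of mean signal (25.8) were left out, which kept 5244 of 8740. The linear model of limma 3.58.1 (R 4.3.3; lmFit, contrasts.fit, eBayes with trend, two-sided) used all 8 arrays with 3 group levels, with 5 residual and 6 prior degrees of freedom. P-values were adjusted by Benjamini-Hochberg over the 5244. The code was tested on simulated data. The smallest exact permutation p for 1 gene is 0.1 with 3 against 3 or 3 against 2 arrays, so calls rest on spread pooled across genes, and the number of arrays limits the precision.

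Of the probe sets, 7006 carried 1 symbol, 308 several and 1426 none; 6985 were found by Entrez ID in the gene table of assembly GRCr8. Probe sets whose names end in _s or _g before _at can match several transcripts, and those named after one sequence share it. Promoters came from RefSeq (GRCr8), with an entry for 6 of the 9 genes. Members and lists were chosen with earlier results of these data known. Genes named are all members, up to 4 called genes per related list and comparison by smallest p, and the 3 most like each called member. Cell markers are named where called, with Myh7, Pax7 and Myf5 as defining genes. A few others complete short counts and were chosen after their values were seen: Klf4 and Ddit3 in walked against unloaded, Casp2, Hrk, Rbl2, Cdk4, Ccne1, Cdkn1c, Zmat3, Dusp5 and the proliferation markers without a call. Alternatives were quantile normalization, no rescaling, a floor at the 20th percentile or at 1, no filter or one at the 60th percentile, no trend, fits on the groups compared, the pool number as a block, and each array left out.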

Additional observations from a re-analysis of the deposited data

How the results depend on the processing

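Quantile normalization, no rescaling, both other floors and the stricter filter kept the counts of called growth arrest probe sets within 1.5 times those reported. Without the filter, 1, 0 and 0 of 22 were called with unloading, with walking against unloaded and with walking against control, in place of 4, 1 and 2; more probe sets were tested then. Without the trend these were 2, 0 and 1, and with the arrays of the compared groups alone walked against unloaded had 2. With 1 array left out they ranged from 2 to 4, 0 to 1 and 0 to 2. Over all probe sets, no filter gave 228 and 216 with unloading and with walking against control in place of 383 and 476, no trend 243 and 211, and leaving out 1 array 230 to 405, 120 to 261 (in place of 220) and 104 to 504. Without a walked array the lone other one is assumed to vary like the other groups. The cause was not tested.

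No pairing of the arrays by pool number was seen, though so few arrays per group cannot exclude it. Deviations from the group means of same-numbered control and unloaded pools correlated at -0.067, -0.036 and 0.052. Control pool 1 correlated best with unloaded pool 2 (0.111). With the number as a replicate block, 0 growth arrest probe sets were called in walked against unloaded and 251 probe sets in all in walked against control. The block ended the calls of Mdm2 AA108308_s_at in walked against unloaded (0.95, adjusted p = 0.0700) and of Ccnd1 D14014_at with unloading (-0.79, 0.0527), and called Mdm2 AA875509_at with unloading (-1.09, 0.0425), so that count stayed at 4.

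Every change of direction was in a value without a call. In unloaded against control, leaving out 1 array gave -0.33 to 0.18 for Ccnd2 D16308_at, -0.43 to 0.05 for Ccnd3 D16309_g_at, -0.25 to 0.81 for Cdkn1a L41275cds_s_at and -0.03 to 0.23 for Ccng1. In walked against unloaded it gave -1.14 to 0.86 for Ccnd1 D14014_g_at (0.09 with the block), -0.91 to 0.53 and -0.02 to 0.26 for Ccnd2 D16308_at and rc_AA899106_at, -0.41 to 0.11 for Ccnd3 D16309_at and -0.25 to 0.29 for Ccnd1 X75207_s_at (0.03 with quantile normalization, 0.02 with the block). In walked against control it gave -0.02 to 0.30 for Mdm2 AA875509_at, -1.03 to 0.41 for Ccnd2 D16308_at and -0.19 to 0.29 for Ccnd3 D16309_g_at (-0.16 with the block).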
